A study of Mus musculus with 6 samples.

Results

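The EGF receptor family was followed through 9 genes of mouse embryonic fibroblasts, taken by symbol, with no threshold on a measured value: the receptors Egfr, Erbb2 and Erbb3, the ligands Hbegf, Areg, Ereg, Tgfa and Btc, and the feedback inhibitor Errfi1. All 9 were among the 48897 genes of the deposited count table, and all 9 passed the filter on low counts. The study sequenced poly(A) RNA of C57BL/6 fibroblasts at passages 5 to 7, and its title concerns apoptosis and necroptosis. TCZ cells received TNF-α, cycloheximide and z-VAD-fmk. TC cells received TNF-α and cycloheximide without z-VAD-fmk, and control cells received PBS. Of these agents, TNF-α is a cytokine of inflammation, cycloheximide stops protein synthesis and z-VAD-fmk blocks caspases. There were 2 libraries per group. The sources used here give no doses or times and name no separate cultures behind the 2 libraries of each group, so the p-values rest on a spread that may be technical. No library had TNF-α or cycloheximide alone, and what each contributes cannot be told apart.

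ERBB receptors are cell-surface tyrosine kinases that pair when a ligand binds and then signal through adaptors, RAS and the MAP kinases. The ligands are made as membrane proteins and released by metalloproteases of the ADAM type, so a transcript level says nothing of how much ligand is shed. In fibroblasts the pathway drives division, migration and survival, and ligand genes are themselves among the genes that growth and stress signals induce. ERRFI1, also called MIG6, binds the kinase domain of active receptors and switches them off.

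Library totals lay between 24922627 and 52909926 counts. Of the 6 libraries, control 2 and TCZ 2 differed from the rest: they had the lowest totals, and the U1 spliceosomal RNA Rnu1a1 had 1 count in TCZ 2 and 3 in control 2, against 165 to 274 in the others. They also differed from each other: the noncoding RNA Rn7s1 had 4 counts in TCZ 2 and 1338 in control 2, against 4916 to 6106 in the others. No label places these libraries in a batch. The 10 fibroblast markers summed to between 7786 and 9209 RPKM in every library, but single markers moved. Pdgfra averaged 1.96 RPKM in TCZ, 7.86 in TC and 14.5 in control, and Pdgfrb 43.1, 24.3 and 90.4 in the same order. Of the 10, 2 were called higher and 6 lower in TC against control, against 31.6% and 29.2% of all genes tested. In TCZ against control 1 was called higher and 2 lower, against 31.5% and 28.6% of all genes. In TCZ against TC 5 and 2 were called, against 28.2% and 27.9%. These shares also stand against the marker counts that follow. The fibroblast counts in TCZ against control depended on scaling. With library totals alone 0 were called higher and 8 lower, with a median log2 fold change of -0.16, against 0.04 in the main fit. With RLE factors 4 were called higher and 2 lower. Epithelial markers, of interest because Erbb3 and Areg are best known from epithelia, summed to 11.5 and 9.23 RPKM in TCZ, 57.0 and 52.2 RPKM in TC, and 14.3 and 13.3 RPKM in control. Most of this sum was the keratin gene Krt19, which averaged 8.77 RPKM in TCZ, 46 in TC and 11.6 in control. The defining markers were scarce. Over both libraries, Epcam had 46 counts in TCZ, 28 in TC and 2 in control. In the same order of groups, Grhl2 had 74, 145 and 0 counts, and Cdh1 had 7, 23 and 4. Krt8 had 16, 137 and 10, and Cldn4 had 5, 64 and 4. Epcam was the only epithelial marker tested that was not highest in TC. Of 11 such markers 7 were tested, and 4 of the 6 called higher in TC against control passed the filter with no control library over its level, so that they could not have been called lower. In TCZ against control 2 were called higher, Epcam and Grhl2, both of that kind, and 1 lower, the keratin gene Krt18. In TCZ against TC 0 were called higher and 4 lower, with a median log2 fold change of -2.30, against 0.02 over all genes. Of those 4, Cldn4 passed the filter through its TC libraries alone. The part of such cells in the results was not tested. Leukocyte markers summed to at most 2.62 RPKM. Of the 4 tested, 1 was called higher in TCZ against control and in TCZ against TC, and none in TC against control. That marker was Itgam, with 316 counts in TCZ, 39 in TC and 35 in control, and its part in the results was not tested. Endothelial markers summed to between 2.38 and 26.3 RPKM. Kdr, the largest of these, averaged 6.87 RPKM in TCZ, 25.2 in TC and 1.85 in control, whereas Pecam1 had 788 counts in TCZ, 14 in TC and 5 in control, and Tek had 233, 64 and 117 and Cdh5 145, 82 and 96 in the same order. Of the 4 endothelial markers tested, 3 were called higher and 0 lower in TCZ against control, against 31.5% and 28.6% of all genes. In TCZ against TC 3 were called higher and 1 lower, Kdr (log2 fold change -1.82), against 28.2% and 27.9%. In TC against control 1 was called higher, Kdr, and 1 lower, Tek. Pecam1 passed the filter through its TCZ libraries alone. The part of these markers in the results was not tested.

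Tests used edgeR's quasi-likelihood model over all genes with Benjamini-Hochberg adjustment, and a gene was called at an adjusted p under 0.05. Within a gene, levels are CPM, which are counts relative to the library total after TMM scaling, and errors are SDs of 2 libraries. Between genes, the authors' RPKM values, which divide by gene length, are compared. Fold changes are on the log2 scale with their standard error (SE).

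In TC against control, 7 of the 9 genes rose and 1 fell. Of all 18563 genes tested, 31.6% were called higher and 29.2% lower, or 60.7% in either direction. The median log2 fold change was 1.15 over the 9 genes and 0.02 over all genes tested. In TCZ against control, 5 rose and 2 fell, where 31.5% of all genes were called higher and 28.6% lower (60.1% in all). The medians were 0.29 for the family and 0.05 for all genes. With library totals and no TMM scaling, the split over all genes in this comparison was 4556 higher and 7019 lower, against 5851 and 5313 with TMM. In TCZ against TC, 2 rose and 6 fell, against 28.2% higher and 27.9% lower over all genes (56.1% in all), with medians of -1.08 and 0.02. Without control 2 and TCZ 2, 6 members were called in TC against control, 7 in TCZ against control and 7 in TCZ against TC. In TC against control 5 were called with DESeq2 and 5 without control 2 alone, the lost calls being those of Erbb2, Tgfa and Btc. A lower transcript level in these bulk libraries can come from fewer expressing cells or from less RNA per cell, which cannot be told apart. Both comparisons with control share the control libraries.

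**Figure D1:**
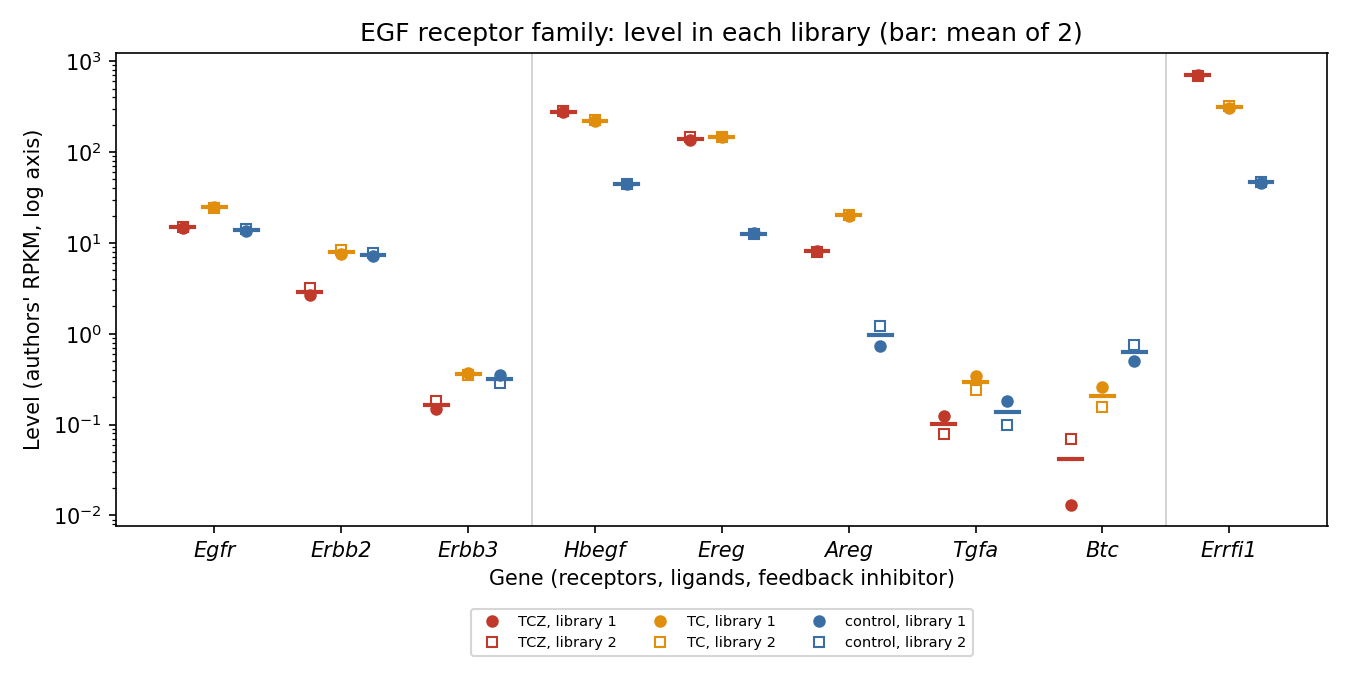
Level of each of the 9 genes in each library (authors' RPKM, log axis), with TCZ, TC and control side by side, points for the 2 libraries and a bar for their mean. Errfi1, Hbegf and Ereg lie far above control in both treatments, Erbb2 lies below the other groups in TCZ at 2.91 RPKM, and Btc descends to 0.0415 RPKM in TCZ.

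Egfr (chromosome 11, 16752203 to 16913907, plus strand; mm10 for all positions of the table) encodes the receptor that all 5 of these ligands bind. It had 102 and 100.1 CPM in TCZ, 163 and 160.5 CPM in TC, and 83.0 and 82.0 CPM in control. The 3 groups did not overlap, and TC was the highest. In TC Egfr rose by 0.97 ± 0.07 on the log2 scale against control (adjusted p = 6.01e-11), which is 1.96-fold. The rise in TCZ was smaller, at 0.29 ± 0.07 (adjusted p = 0.00108), and it was the 1 Egfr call that depended on scaling: with library totals alone the value was 0.09 and was not called. Set directly against TC, the TCZ level changed by -0.68 ± 0.07 (adjusted p = 3.39e-08). A pair of antisense noncoding genes lies within Egfr, with at most 78 counts in any library against at least 2420 for Egfr. Whether the authors' counting used strand is not given in the sources used here.

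Erbb2 (chromosome 11, 98412484 to 98437716, plus strand) encodes the receptor that has no known ligand of its own and acts as the partner of the others. It had 14.4 and 16.4 CPM in TCZ, 38.5 and 42.6 CPM in TC, and 34.2 and 34.4 CPM in control. TCZ libraries were the lowest and the TC libraries lay slightly above control. Erbb2 fell in TCZ, with a log2 change of -1.17 ± 0.09 against control (adjusted p = 2.5e-10) and -1.41 ± 0.09 against TC (adjusted p = 1.89e-11), and both calls held in each of 14 alternative fits. The rise in TC was 0.24 ± 0.08 (adjusted p = 0.0175). That call was lost in 6 of 14 alternatives, where values ranged from 0.10 to 0.31: with DESeq2, with library totals, with no low-count filter, and without control 1, control 2 or TC 2. The 3′ end of Erbb2 shares 9 bases with Mien1 on the other strand.

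Erbb3 (chromosome 10, 128569368 to 128589501, minus strand) encodes a neuregulin receptor with little kinase activity of its own, and was scarce. Its counts were 32 and 18 in TCZ, 73 and 72 in TC, and 65 and 31 in control, which is 0.659 and 0.744 CPM, 1.5 and 1.45 CPM, and 1.34 and 1.03 CPM in the same order of groups. Both TCZ libraries lay below those of TC and control, but only the change against TC was called, at -1.08 ± 0.39 (adjusted p = 0.0217). This call was lost with DESeq2 and without TC 1 or TCZ 1. Against control, Erbb3 passed in neither treatment: the log2 difference was 0.30 in TC with a 95% interval of -0.45 to 1.06 (adjusted p = 0.485), and -0.78 in TCZ with an interval of -1.60 to 0.05 (adjusted p = 0.0966). The TCZ interval does not exclude a fall of the size called for Erbb2 in the same comparison.

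Per length, Egfr made up most of the receptor transcripts in every group. Its share of the summed RPKM of Egfr, Erbb2 and Erbb3 was 82.8% ± 1.47 in TCZ, 74.8% ± 1.48 in TC and 64.2% ± 0.0854 in control (SD, n = 2 each). Erbb2 held 16.3% ± 1.40 in TCZ, 24.1% ± 1.51 in TC and 34.4% ± 0.349 in control. The sum itself was 17.9 ± 0.759 RPKM in TCZ, 32.9 ± 0.208 in TC and 21.6 ± 0.978 in control. RPKM values carry no TMM scaling, whose factors were 0.917 and 0.970 in TCZ and 1.044 and 1.124 in control. Dividing by these factors would narrow the gap between TCZ and control. Egfr thus took a larger part of the receptor pool in both treatments, with no overlap between groups, though the pool was largest in TC.

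Hbegf (chromosome 18, 36504927 to 36515805, minus strand) encodes heparin-binding EGF-like growth factor, a ligand of EGFR and ERBB4. It had 713 and 685 CPM in TCZ, 529 and 549 CPM in TC, and 102 and 93.9 CPM in control. Every treated library was far above control, and TCZ was above TC. Hbegf rose by 2.84 ± 0.08 in TCZ (7.15-fold, adjusted p = 2.19e-18) and by 2.46 ± 0.07 in TC (5.51-fold, adjusted p = 2.54e-17) against control. The difference between TCZ and TC was 0.38 ± 0.07 (adjusted p = 0.000109). These 3 calls held in every alternative fit.

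Ereg (chromosome 5, 91074617 to 91093649, plus strand) encodes epiregulin, also a ligand of EGFR and ERBB4. It had 613 and 624 CPM in TCZ, 618 and 626 CPM in TC, and 50.3 and 45.6 CPM in control. The treated libraries lay within a narrow band that did not separate TCZ from TC. Ereg rose by 3.69 ± 0.08 in TCZ (adjusted p = 5.29e-20) and by 3.70 ± 0.08 in TC (adjusted p = 1.09e-19), about 13.0-fold in TC. The difference between TCZ and TC was -0.01, with a 95% interval of -0.15 to 0.14 (adjusted p = 0.935). An antisense noncoding gene, LOC102639958, shares 147 bases with Ereg, with 901 and 426 counts in TCZ, 793 and 807 in TC, and 226 and 204 in control, against 1374 or more counts for Ereg in every library.

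Areg (chromosome 5, 91139599 to 91148432, plus strand) encodes amphiregulin, an EGFR ligand. It had 524 and 243 counts in TCZ, 1198 and 1252 in TC, and 41 and 40 in control. Scaled, these were 10.8 and 10 CPM in TCZ, 24.7 and 25.2 CPM in TC, and 0.845 and 1.33 CPM in control. The gene was low in control and highest in TC. Areg rose by 4.58 ± 0.16 in TC (23.9-fold, adjusted p = 1.99e-16) and by 3.33 ± 0.17 in TCZ (10-fold, adjusted p = 1.35e-13). In TCZ against TC it changed by -1.25 ± 0.12 (adjusted p = 7.24e-09). Of the 5 ligand genes Areg had the largest fold change in TC, while in TCZ that of Ereg was larger; these differences between genes were not tested, and the order in TCZ turned without control 2 (Areg 3.61, Ereg 3.60) and without control 2 and TCZ 2 (Areg 3.67, Ereg 3.60).

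Btc (chromosome 5, 91357261 to 91402994, minus strand) encodes betacellulin, a ligand of EGFR and ERBB4. Its counts were 2 and 5 in TCZ, 37 and 23 in TC, and 67 and 58 in control, or 0.0412 and 0.207 CPM, 0.762 and 0.463 CPM, and 1.38 and 1.92 CPM in the same order of groups. The 3 groups did not overlap, and TCZ was the lowest. Btc passed the low-count filter through its TC and control libraries, since neither TCZ library reached the filter's level of 0.208 CPM. It fell by 3.97 ± 0.65 in TCZ against control (adjusted p = 1.9e-05). Over the group sums, 7 counts in TCZ against 125 in control gave a ratio of 0.0606, with an exact 95% counting interval of 0.0239 to 0.129. The log2 value was -2.98 without TCZ 1 and -5.22 without TCZ 2, called in both. The fall in TC was -1.42 ± 0.49 (adjusted p = 0.0164), and this call was lost in 5 of 14 alternatives: with DESeq2, with a batch term, and without control 2, TC 2, or both control 2 and TCZ 2. Between TCZ and TC the value was -2.55 ± 0.69 (adjusted p = 0.00333), which became -1.56 and was not called without TCZ 1, -3.80 without TCZ 2 and -3.81 without control 2 and TCZ 2.

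Tgfa (chromosome 6, 86195227 to 86275743, plus strand) encodes transforming growth factor alpha, an EGFR ligand, and was also scarce. Its counts were 30 and 9 in TCZ, 77 and 56 in TC, and 38 and 12 in control. In CPM these were 0.618 and 0.372 in TCZ, 1.59 and 1.13 in TC, and 0.783 and 0.398 in control. The TC libraries were the highest, and TCZ overlapped control. In TC Tgfa rose by 1.15 ± 0.46 (adjusted p = 0.035), and in TCZ against TC it changed by -1.39 ± 0.47 (adjusted p = 0.0163). The call in TC was lost in 6 of 14 alternatives: with DESeq2, library totals or a batch term, and without control 2, TC 1, or control 2 and TCZ 2; the value was 1.76 without control 1. That between TCZ and TC was lost in 5, namely with DESeq2 or a batch term and without TC 1, TCZ 2, or control 2 and TCZ 2. Against control, the TCZ value of -0.24 had a 95% interval of -1.29 to 0.81 (adjusted p = 0.707).

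Ereg, Areg and Btc are neighbours on chromosome 5, within 328 kb. Ereg and Areg, on the same strand and 46 kb apart, rose in both treatments, while Btc, 209 kb beyond Areg on the opposite strand, fell. The table lists 1 other gene wholly within this stretch, the noncoding Gm19619, with 2 counts in all 6 libraries together.

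**Figure D2:**
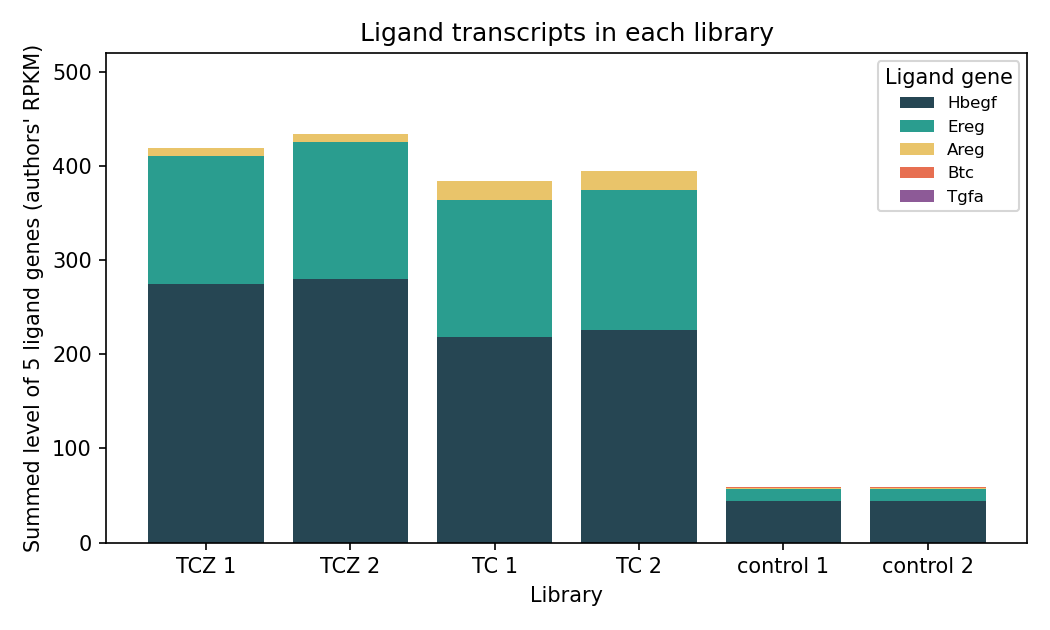
Summed level of the 5 ligand genes in each library (authors' RPKM, stacked bars from 0), with TCZ, TC and control from left to right. The sum is 427 RPKM on average in TCZ, 390.0 in TC and 58.8 in control, nearly all of it Hbegf and Ereg, and Btc and Tgfa are too low to be seen.

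Summed per length, the 5 ligand genes reached 427 ± 10.6 RPKM in TCZ and 390.0 ± 6.80 in TC, against 58.8 ± 0.126 in control (SD, n = 2 each). These sums are also without TMM scaling. Hbegf led in every group, with 65.0% ± 0.849 of the sum in TCZ, 57.0% ± 0.411 in TC and 75.7% ± 0.376 in control. Ereg held 33.0% ± 0.916 in TCZ, 37.7% ± 0.349 in TC and 21.3% ± 0.424 in control. Areg held 1.89% ± 0.0677 in TCZ, 5.15% ± 0.0231 in TC and 1.66% ± 0.599 in control. The part of Ereg was therefore larger in both treatments than in control, and that of Areg stood out only in TC, since its TCZ share lay within the range of the control libraries.

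Errfi1 (chromosome 4, 150853801 to 150868889, plus strand), the feedback inhibitor, was the most abundant of the 9 genes per length in every group. It had 2596 and 2387 CPM in TCZ, 1037 and 1109 CPM in TC, and 147 and 138 CPM in control. The groups were far apart, in the order TCZ, TC, control. Errfi1 rose by 4.13 ± 0.08 in TCZ (17.5-fold, adjusted p = 1.46e-20) and by 2.91 ± 0.08 in TC (7.53-fold, adjusted p = 2.97e-18). TCZ exceeded TC by 1.22 ± 0.07 (2.32-fold, adjusted p = 6.58e-12). All 3 calls held in every alternative fit. Of the 9 genes, only Errfi1 and Hbegf were called higher in TCZ than in TC. A noncoding gene on the other strand, 1700045H11Rik, shares 1149 bases with Errfi1 and had at most 5 counts in any library.

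**Figure D3:**
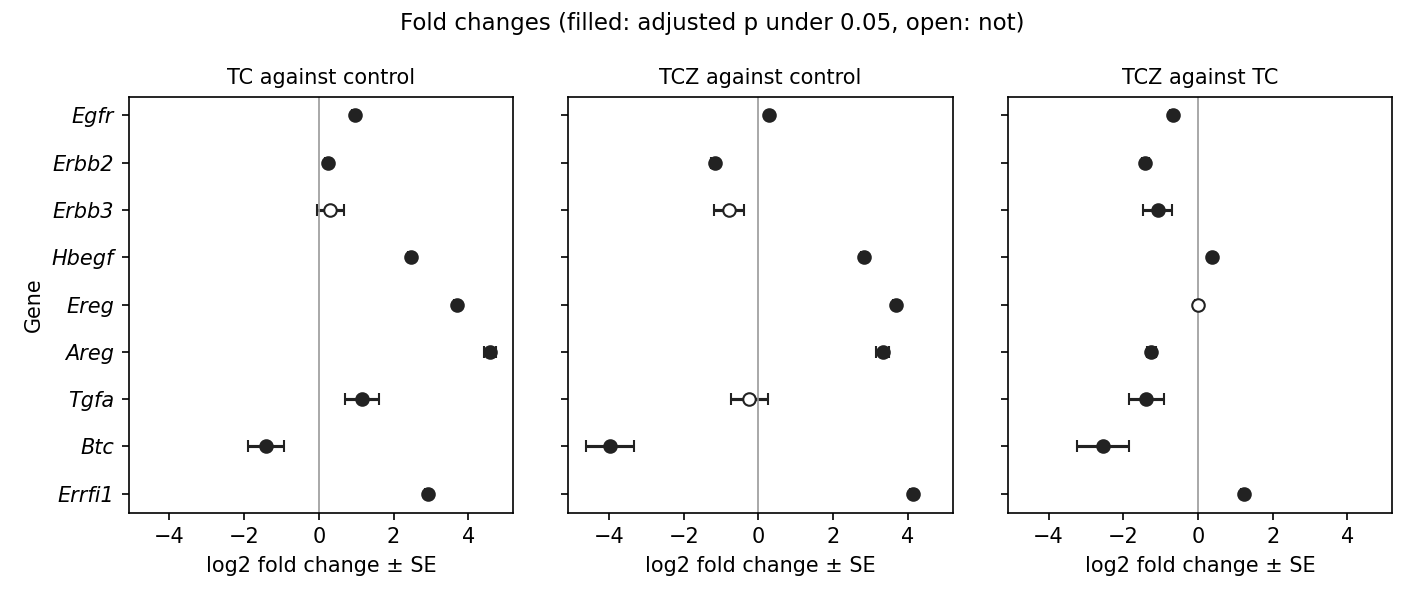
Log2 fold change of each gene with its standard error in the 3 comparisons, filled where the adjusted p is under 0.05. Hbegf, Ereg, Areg and Errfi1 lie far right of 0 against control in both treatments, Btc lies left of 0 in each panel, and in TCZ against TC the receptors lie left of 0 while Errfi1 lies at 1.22.

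Promoter sequences were searched for short motifs near the start sites of these genes. RefSeq windows of 250 bases before and 50 after a start site (GRCm38.p6) were at hand for 6 of the 9 genes. Hbegf, Ereg and Erbb3 had none, so the ligand genes with the highest levels could not be searched. They are shown for Areg and Errfi1, which rose in both treatments, and for Btc, the ligand gene of the same chromosome 5 stretch that fell. Egfr, which also rose in both treatments, is not shown. Errfi1 has a pair of annotated start sites, at 150853796 and 150855070. Letters run 5′ to 3′ on the gene's strand, and capitals mark the cAMP response element TGACGTCA and the TATA box TATAAA, searched on both strands.
Areg, chr5:91139349-91139648, plus strand: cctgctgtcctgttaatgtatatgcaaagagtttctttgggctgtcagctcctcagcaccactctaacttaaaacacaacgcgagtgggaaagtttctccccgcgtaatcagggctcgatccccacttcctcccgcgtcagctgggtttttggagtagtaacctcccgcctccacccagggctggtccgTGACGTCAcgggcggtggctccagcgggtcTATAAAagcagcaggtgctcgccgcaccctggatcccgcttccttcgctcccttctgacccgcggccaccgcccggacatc
Errfi1 downstream start, chr4:150854820-150855119, plus strand: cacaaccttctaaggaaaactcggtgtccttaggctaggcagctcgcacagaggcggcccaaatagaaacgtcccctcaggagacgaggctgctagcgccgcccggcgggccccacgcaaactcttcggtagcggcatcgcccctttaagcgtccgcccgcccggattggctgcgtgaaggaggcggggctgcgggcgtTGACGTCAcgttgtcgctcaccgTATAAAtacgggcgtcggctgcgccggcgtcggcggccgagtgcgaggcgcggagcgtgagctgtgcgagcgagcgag
Errfi1 upstream start, chr4:150853546-150853845, plus strand: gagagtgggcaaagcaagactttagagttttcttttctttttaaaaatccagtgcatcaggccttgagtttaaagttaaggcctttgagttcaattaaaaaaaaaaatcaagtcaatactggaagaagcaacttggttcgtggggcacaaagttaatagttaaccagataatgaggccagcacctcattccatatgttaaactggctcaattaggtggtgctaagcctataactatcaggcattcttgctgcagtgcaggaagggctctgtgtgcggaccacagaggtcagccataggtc
Btc, chr5:91402945-91403244, minus strand: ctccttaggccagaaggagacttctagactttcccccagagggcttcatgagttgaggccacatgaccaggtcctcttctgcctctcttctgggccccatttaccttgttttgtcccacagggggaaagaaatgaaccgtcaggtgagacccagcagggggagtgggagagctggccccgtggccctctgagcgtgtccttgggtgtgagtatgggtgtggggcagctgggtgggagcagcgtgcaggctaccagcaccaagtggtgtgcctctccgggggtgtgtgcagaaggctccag
The Areg window held TGACGTCA beginning 61 bases before the start site and TATAAA beginning 31 bases before it. The downstream Errfi1 window held TGACGTCA beginning 51 bases and TATAAA beginning 28 bases before its start site. Among all 32851 windows, 1.79% held TGACGTCA, 13.6% held TATAAA and 0.17% held both. Neither motif was found in the upstream Errfi1 window or in those of Btc, Egfr, Erbb2 and Tgfa. Of these, Egfr was called higher against control in both treatments, and Erbb2 and Tgfa in TC. A link between the motifs and the changes was not tested. The AP-1 motif TGANTCA (7.81% of windows), the kappaB consensus (4.51%) and the CArG box bound by SRF (1.63%), also searched on both strands, were found in none of the windows of these 6 genes. Such matches describe the letters of these windows, and the table's counts do not tell which Errfi1 start was used.

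Per length, the order of levels changed with treatment. In TCZ it was Errfi1 (705 RPKM), Hbegf (278), Ereg (141), Egfr (14.8), Areg (8.09), Erbb2 (2.91), Erbb3 (0.165), Tgfa (0.102) and Btc (0.0415). In TC it was Errfi1 (315 RPKM), Hbegf (222), Ereg (147), Egfr (24.6), Areg (20.1), Erbb2 (7.94), Erbb3 (0.359), Tgfa (0.292) and Btc (0.208). In control it was Errfi1 (46.3 RPKM), Hbegf (44.5), Egfr (13.9), Ereg (12.5), Erbb2 (7.44), Areg (0.976), Btc (0.626), Erbb3 (0.318) and Tgfa (0.139). The libraries of neighbours in these orders overlapped for Tgfa and Btc in TC and for Areg and Btc in control, and for no other neighbours. In both treatments Ereg thus passed Egfr in rank and Areg passed Erbb2. Btc moved to the last place, though in TC its libraries overlapped those of Tgfa.

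For Egfr, Hbegf and Errfi1, the genes with the most similar values over the 6 libraries were sought. Likeness was measured as the root mean square distance between centred log2(CPM + 1) values, among 12076 other genes that averaged 1 CPM or more. Genes with predicted or clone names were left out of this search. Egfr was most like Shb, an adaptor gene with an SH2 domain (distance 0.033), Sash1 (0.037) and the deubiquitinase gene Otud5 (0.040). Hbegf was most like Edn1, which encodes endothelin (0.057; 53.4 CPM in TCZ, 42.5 in TC and 6.28 in control), Myh15 (0.062; 6.49 CPM in TCZ, 4.34 in TC and 0.0269 in control) and Ppp1r15a, a stress-induced phosphatase subunit gene (0.084). The added 1 CPM shrinks the distance of low genes, and Myh15, close to 0 in control, had a far larger ratio between groups than Hbegf. Errfi1 was most like the immediate early transcription factor gene Egr2 (0.084; 324 CPM in TCZ, 129.6 in TC and 15.5 in control), Arid5a (0.096) and Btg2 (0.10; 897 CPM in TCZ, 347 in TC and 42.5 in control).

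Among the other 7 receptor and ligand genes of the family, 3 passed the filter. Nrg1, a neuregulin that binds ERBB3 and ERBB4, had 68.0 and 64.1 CPM in TCZ, 151 and 153 CPM in TC, and 16 and 14.6 CPM in control. It rose by 3.31 ± 0.08 in TC (adjusted p = 9.74e-19) and by 2.11 ± 0.08 in TCZ (adjusted p = 1.22e-15). Between TCZ and TC it changed by -1.20 ± 0.07 (adjusted p = 9.21e-12). This order of groups was not particular to Nrg1, and was also seen for Areg, Egfr, Rhbdf2 and Lrig1. Egf had 1 count in TCZ, 21 in TC and 38 in control over both libraries of a group. The ratio of TCZ to control was 0.0285 with an exact 95% counting interval of 0.000703 to 0.169, and Egf was called lower against control (adjusted p = 0.0026). It passed the filter through both control libraries and 1 TC library, with no TCZ library over the filter's level. Against TC the ratio was 0.0644, with an interval of 0.00156 to 0.400 (adjusted p = 0.0286), and this call was lost with DESeq2 and without control 1, control 2, TC 2, TCZ 1, or control 2 and TCZ 2. The log2 value of -3.63 became -1.89 without TC 2 and -2.29 without TCZ 1. Nrg4 passed in no comparison, with 24, 35 and 34 counts in TCZ, TC and control. The receptor gene Erbb4 had 12, 23 and 1 counts, Epgn 10, 1 and 3, Nrg2 6, 12 and 3, and Nrg3 0, 0 and 1 in the same order.

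The counts of the lists that follow stand against the shares over all genes tested: 31.6% higher and 29.2% lower in TC against control, 31.5% and 28.6% in TCZ against control, and 28.2% and 27.9% in TCZ against TC. The medians over all genes were 0.02, 0.05 and 0.02 on the log2 scale.

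Of 9 genes for ligand release, 3 rose and 5 fell in TC against control, 4 rose and 1 fell in TCZ against control, and 4 rose and 2 fell in TCZ against TC. Their medians were -0.29, 0.09 and 0.12. Adam17, the main sheddase of amphiregulin, epiregulin, HB-EGF and TGF-α, had 91.6 and 85.7 CPM in TCZ, 47.7 and 51.7 CPM in TC, and 60.5 and 60.7 CPM in control, and rose by 0.84 ± 0.07 in TCZ against TC (adjusted p = 3.74e-09). Adam10, the main sheddase of betacellulin, fell by 0.77 ± 0.07 in TC (adjusted p = 3e-09). The iRhom genes, whose products carry ADAM17 to the cell surface, rose in both treatments: Rhbdf2 had 15.1 and 11.9 CPM in TCZ, 38.7 and 37.2 CPM in TC, and 6.76 and 7.46 CPM in control. Rhbdf2 rose by 2.42 ± 0.11 in TC and changed in TCZ against TC by -1.47 ± 0.11 (adjusted p = 1.07e-10), while Rhbdf1 rose by 1.03 ± 0.07 in TC and 1.01 ± 0.08 in TCZ. Adam15 fell by 0.54 ± 0.07 in TC and Adam12 fell by 0.67 ± 0.08 in TCZ. Adam8 rose in TCZ by 0.96 ± 0.36 against control and 1.25 ± 0.36 against TC; the first was lost with DESeq2, with library totals, and without control 2, TCZ 1, or control 2 and TCZ 2, and the second without TC 1 or TCZ 1, with values of 0.47 and 0.76 without TCZ 1. Adam9 fell by 0.24 ± 0.07 in TCZ against TC, a call lost without TC 1 or TCZ 2. With library totals, 3 of the 9 rose and 4 fell in TCZ against control, and their median was -0.11.

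**Figure D4:**
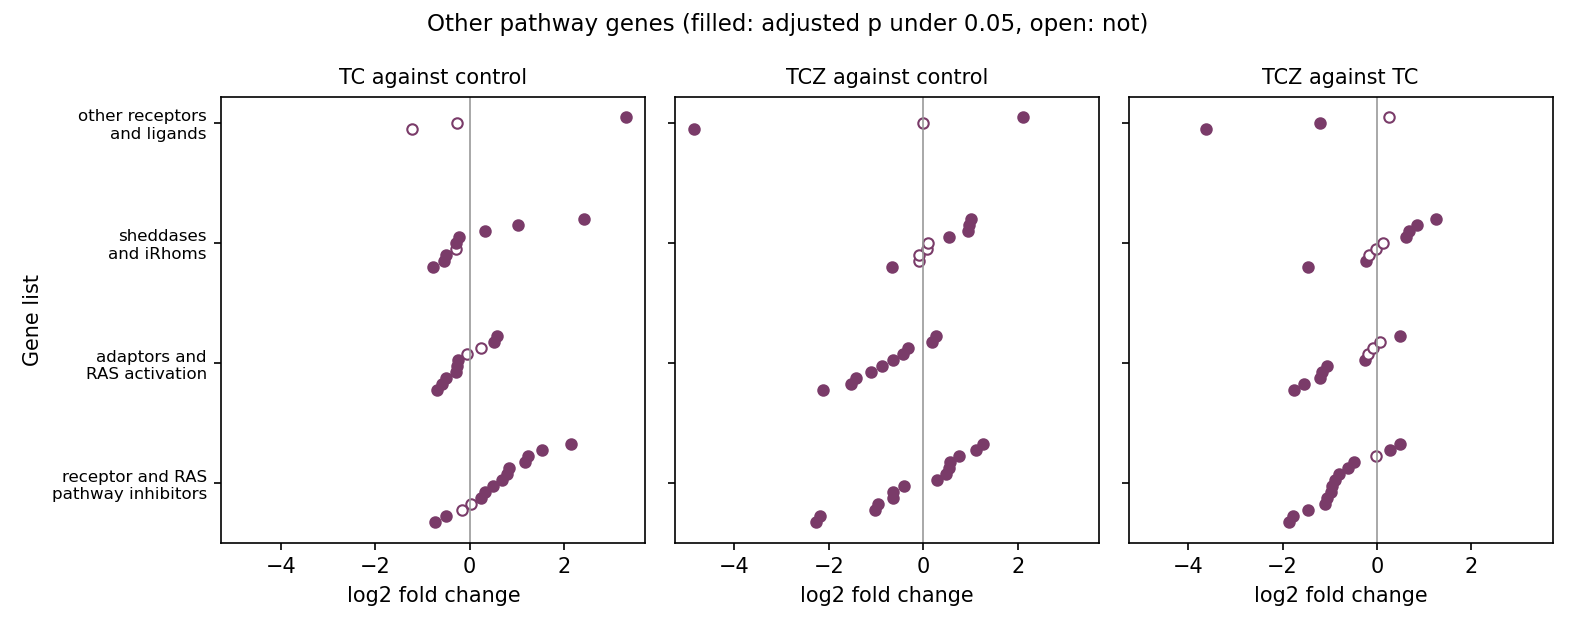
Log2 fold changes of the other pathway genes that passed the filter, 1 point per gene and filled where the adjusted p is under 0.05, in 4 lists and 3 comparisons. In TCZ against control the adaptor and RAS list lies mostly left of 0 (8 of 10 genes lower), and in TCZ against TC so do the inhibitors (11 of 14 lower).

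Of 10 adaptor and RAS genes, where 60.7%, 60.1% and 56.1% of all genes were called in either direction in the same 3 comparisons, 2 rose and 6 fell in TC against control, 2 rose and 8 fell in TCZ against control, and 1 rose and 6 fell in TCZ against TC, with medians of -0.25, -0.76 and -0.65. Ptpn11, the phosphatase SHP2, rose by 0.52 ± 0.07 in TC. Hras fell by 0.69 ± 0.09 in TC, and Sos2, a RAS exchange factor gene, fell by 0.59 ± 0.10. In TCZ, Sos2 fell by 2.13 ± 0.11 (adjusted p = 2.34e-13) and the docking protein gene Gab1 fell by 1.53 ± 0.12 (adjusted p = 1.73e-10) against control. The 2 rises in TCZ were small, Ptpn11 at 0.27 ± 0.07 and the adaptor gene Grb2 at 0.18 ± 0.08, and neither was called with library totals, where Grb2 stood at -0.01, with no low-count filter, or without control 2 or TCZ 1. The Grb2 call was also lost without TC 1, TC 2, or control 2 and TCZ 2. Between TCZ and TC, Grb2 rose by 0.48 ± 0.08, Gab1 changed by -1.76 ± 0.12 and Sos2 by -1.54 ± 0.11.

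Of 14 inhibitors of receptors and RAS signalling that passed the filter, 10 rose and 2 fell in TC against control, 7 rose and 7 fell in TCZ against control, and 2 rose and 11 fell in TCZ against TC, with medians of 0.59, -0.07 and -0.93. Over all genes, the shares were 31.6% higher and 29.2% lower, 31.5% and 28.6%, and 28.2% and 27.9%. Spry4, a Sprouty gene induced by MAP kinase signalling, had 50.3 and 53.5 CPM in TCZ, 177 and 198 CPM in TC, and 44.3 and 40.9 CPM in control. It rose by 2.14 ± 0.08 in TC (adjusted p = 8.84e-16) and changed in TCZ against TC by -1.86 ± 0.08 (adjusted p = 2.84e-14). Lrig1, a membrane protein that promotes loss of ERBB receptors, rose by 1.53 ± 0.08 in TC. Spry2, which like Errfi1 was highest in TCZ, had 190.1 and 175 CPM in TCZ, 130.0 and 133 CPM in TC, and 77.5 and 75.5 CPM in control, and it rose by 1.26 ± 0.07 in TCZ against control and 0.48 ± 0.07 against TC. Socs4, a SOCS-box gene, rose by 1.11 ± 0.09 in TCZ against control and 0.28 ± 0.08 against TC, the second of these being lost with no low-count filter and without TC 1 or TCZ 2. Rnf41, a ubiquitin ligase gene that limits ERBB3, fell in TCZ against control (log2 change -2.27 ± 0.09, adjusted p = 7.49e-16), in TC against control (-0.51 ± 0.08, adjusted p = 5.18e-06) and in TCZ against TC (-1.77 ± 0.09). Spred2, an inhibitor of RAF activation, fell by 2.19 ± 0.10 in TCZ and fell by 0.74 ± 0.09 in TC, both against control. Without control 2 and TCZ 2, the counts of inhibitors were 9 higher and 3 lower in TC against control, 6 and 7 in TCZ against control, and 2 and 11 in TCZ against TC.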

How the data were processed

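Poly(A) RNA was sequenced in 3 groups of 2 libraries, with groups and replicate numbers taken from the sample titles. The authors deposited 1 table that gives, per the file headers, a raw count and an RPKM value for each gene and library. The submitters' processing notes name build mm10 and the tools HTSeq, bcl2fastq and HISAT2 2.1.0; their annotation, strand setting and filters: not given in the sources used here. The deposited RPKM values equalled those recomputed from counts, gene lengths and library totals to within 4.97e-07.

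Tests on the counts used edgeR 4.0.16 in R 4.3.3. Of 48897 genes, 18563 passed filterByExpr by group (minimum count 10). All 6 libraries entered 1 quasi-likelihood model without further covariates (3 residual degrees of freedom), with TMM scaling and Benjamini-Hochberg adjustment over all genes tested at a threshold of 0.05. The biological coefficient of variation was 7.38%. The procedure was tested on simulated data. Counting intervals (exact, 95%) cover counting error only.

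All 9 family members are reported. From each pathway list, the 2 largest rises and 2 largest falls among called genes per comparison are named, and for Egfr, Hbegf and Errfi1 the 3 most alike genes; other genes or values given, such as Nrg4, Erbb4 and the markers, were chosen after their values were seen. Spry3 is listed but was not in the table. A gene that this rule names is not reported here. The members, lists, motifs and alternatives were chosen with earlier results of these data known. DESeq2 1.42.0 was an alternative, as were RLE factors, library totals, no filter, only the 4 libraries compared, a replicate block, leaving out each library, leaving out control 2 and TCZ 2, and a batch term for these 2. List counts under alternatives were added after seeing the data.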

Additional observations from a re-analysis of the deposited data

How the results depend on the processing

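Of the 27 values (9 genes in 3 comparisons), 19 kept their call in all 14 alternatives each and 8 did not; those 8 belong to Erbb2, Tgfa and Btc in TC against control, Egfr and Erbb3 in TCZ against control, and Erbb3, Tgfa and Btc in TCZ against TC. The number of members called in TC against control was 8; it was 5 with DESeq2, and between 5 and 8 when 1 library was left out, the lowest being without control 2. Signs turned only for values that were never called: Tgfa in TCZ against control was 0.36 without control 1 and 0.03 without TCZ 2, within a range of -0.72 to 0.36 when 1 library was left out, and Ereg in TCZ against TC was 0.00 with RLE factors and 0.01 with a batch term. Erbb3 in TCZ against control was called in 1 alternative, library totals. Causes were not tested. Library totals moved the median of all genes by -0.14, -0.20 and -0.06 for TC and TCZ against control and for TCZ against TC. With the replicate block, 8, 7 and 8 members were called in these comparisons, as without it, and 11240, 11166 and 10434 genes. The numbers are not shown to pair the libraries: deviations of same-numbered libraries correlated across genes at 0.00 between TC and control, 0.26 between TCZ and control and -0.06 between TCZ and TC. A lone library of a group was assumed to vary like the other groups. Counts of Btc, Tgfa and Erbb3, at most 77 in any library, limit what can be said of these genes.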
